A study of Mus musculus with 12 samples.

Results

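The 10 genes described here encode enzymes that make serine, one-carbon units and several non-essential amino acids: Phgdh, Psat1, Psph, Shmt2, Mthfd2, Asns, Pck2, Gpt2, Aldh18a1 and Cth. They were taken as a named list of enzyme genes, and all 10 had a row among the 12643 genes measured in the series. RNA came from MIN6 cells, a mouse insulinoma line used as a model of pancreatic beta cells, grown in high glucose DMEM and at passage 29 in every group. Cells received either an siRNA against Pdx1 or a control siRNA that the labels call NT, in both cases by AMAXA nucleofection, and were collected after 72 h. Each siRNA gave IP RNA, which is RNA purified with ribosomes by TRAP (translating ribosome affinity purification), and total RNA, with 3 libraries in each of the 4 groups. All 12 libraries thus come from a single cell line and passage, and neither fraction measures enzyme protein. Whether the 3 libraries of a group came from separate cultures is not stated, so the p-values refer to variation among these libraries alone, and that variation may be technical.

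Serine is made from a glycolytic intermediate by PHGDH, PSAT1 and PSPH acting in sequence. In mitochondria SHMT2 splits serine into glycine and a folate-bound carbon unit, which MTHFD2 carries on towards formate, and that carbon feeds purine and thymidylate synthesis. ASNS makes asparagine, GPT2 makes alanine in mitochondria, ALDH18A1 starts proline synthesis from glutamate, PCK2 makes phosphoenolpyruvate in mitochondria, and CTH makes cysteine in transsulfuration. Many of these genes are known targets of ATF4, a transcription factor of the amino acid and ER stress responses that binds, often with a C/EBP partner, at composite elements whose shared letters can be written TGATGNAA. PDX1 is a homeodomain transcription factor that beta cells need for insulin gene expression and for their identity.

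A match to these letters was found upstream of Asns and Pck2, and in none of the other members with a window. Psat1, which had no match, was added as the gene without a near-identical copy that fell furthest after Pdx1 siRNA. The sequences upstream of these 3 genes are shown. They are the 250 bases before the RefSeq start site (GRCm38.p6), written 5′ to 3′ on the strand of the gene, with a match to TGATGNAA on either strand in capitals. Asns lies at chr6:7693210-7693459 on the minus strand, Pck2 at chr14:55540016-55540265 on the plus strand and Psat1 at chr19:15925060-15925309 on the minus strand.
Asns: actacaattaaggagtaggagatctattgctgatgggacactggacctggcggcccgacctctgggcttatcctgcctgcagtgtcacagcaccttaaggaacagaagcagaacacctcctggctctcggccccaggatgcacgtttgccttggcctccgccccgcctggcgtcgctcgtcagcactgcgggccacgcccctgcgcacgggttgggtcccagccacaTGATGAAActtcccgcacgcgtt
Pck2: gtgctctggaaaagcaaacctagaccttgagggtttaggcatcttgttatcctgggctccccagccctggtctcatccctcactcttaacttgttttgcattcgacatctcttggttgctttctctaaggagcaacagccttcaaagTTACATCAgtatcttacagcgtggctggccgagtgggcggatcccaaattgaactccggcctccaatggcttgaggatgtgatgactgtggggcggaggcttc
Psat1: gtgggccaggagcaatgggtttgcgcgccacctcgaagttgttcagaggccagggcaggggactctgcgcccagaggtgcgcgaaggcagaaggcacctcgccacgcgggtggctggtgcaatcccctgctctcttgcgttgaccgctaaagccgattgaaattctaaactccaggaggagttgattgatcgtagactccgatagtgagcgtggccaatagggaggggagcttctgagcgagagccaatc
The Asns match read TGATGAAA on the strand of the gene and lay 23 to 16 bases before the start site. The Pck2 match, printed as TTACATCA, reads TGATGTAA on the other strand and lay 103 to 96 bases before the start site. TGATGNAA was the only motif searched, in windows of 300 bases that also cover 50 bases after the start. It was found in 2 of the 9 members with a window in the table (22.2%), in 4.51% of all 27025 genes with a window and in 2.68% of the 10081 measured genes with one. Cth had no entry. A match is a description of the letters and not a binding site. Whether a match has a part in the changes after Pdx1 siRNA was not tested.

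Counts were given per RefSeq transcript, and the transcript with the most counts over all libraries stood for its gene. The representative transcripts were NM_016966 for Phgdh (chr3:98313171-98339969, 12 exons), NM_177420 for Psat1 (chr19:15905123-15925059, 9 exons), NM_133900 for Psph (chr5:129765558-129787443, 8 exons), NM_028230 for Shmt2 (chr10:127517123-127522444, 12 exons) and NM_008638 for Mthfd2 (chr6:83305704-83326011, 8 exons). For the other genes they were NM_012055 for Asns (chr6:7675165-7693209, 12 exons), NM_028994 for Pck2 (chr14:55540263-55550020, 10 exons), NM_173866 for Gpt2 (chr8:85492576-85528902, 12 exons), NM_019698 for Aldh18a1 (chr19:40550257-40588463, 19 exons) and NM_145953 for Cth (chr3:157894248-157925081, 12 exons). Coordinates are those of GRCm38. The Phgdh counts are uncertain, because 89.5% of its transcript matched other transcripts at 95% identity or more; the best match was the processed pseudogene Gm7901 (chr8:75711600-75713196). No such match was found for the other 9 genes. Psph shares 26.1% of its exon bases with Cct6a, a chaperonin subunit gene on the opposite strand, and Shmt2 shares 0.699% with Ndufa4l2. Whether strand was used in counting is not given in the sources used here, so reads of such partners cannot be told apart.

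The libraries held 29430690 to 45806807 counts over the measured genes. NT IP replicate 3 and the 3 Pdx1 siRNA IP libraries differed from the rest at some genes that have near-identical copies. They held 22 to 37 counts of Rpl32l, a ribosomal protein gene copy, against 1726 and 1260 in NT IP replicates 1 and 2 and 699 to 1131 in total RNA. Genes with a copy held 1.97% to 2.44% of the counts in these 4 libraries and 3.53% and 3.25% in NT IP replicates 1 and 2. In total RNA they held 2.00% to 2.74%, so this share did not set the 4 libraries apart from total RNA. NT IP replicate 3 differed more than 2-fold from the mean of the other NT IP libraries at 15.5% of 452 genes with a copy and at 0.311% of 11574 genes with under 10% of their transcript matched. Of the 10 enzyme genes, Phgdh differed most in this library, by −0.32 on the log2 scale, followed by Pck2 at 0.25, and the other 8 lay between −0.01 and 0.15. The tests of the enzyme genes that use the NT IP group were therefore also run without it. Pdx1 itself fell after Pdx1 siRNA from 118, 123 and 110 to 47.6, 57.4 and 47.9 CPM (counts scaled to a fixed library size, with TMM factors) in total RNA, and from 104, 115 and 111 to 50.6, 46.7 and 39.2 CPM in IP RNA. The 10 beta cell markers summed to 102207 to 113219 CPM in NT total and 92615 to 98892 CPM in Pdx1 siRNA total, and to 202471 to 236946 and 184039 to 227422 CPM in the matching IP groups. Taken singly, 4 of the 10 fell and 2 rose after Pdx1 siRNA in total RNA, and 5 fell and 2 rose in IP RNA. The 5 measured alpha cell markers, among them Gcg and Ttr, summed to 10765 to 13034 CPM in NT total and 31495 to 35172 CPM in Pdx1 siRNA total, and to 19707 to 23899 and 61424 to 77522 CPM in the matching IP groups. Each of these 5 rose in both fractions, and the part of this shift in the results below was not tested. Markers of acinar, duct, immune, endothelial and fibroblast cells were not analysed here.

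Pdx1 siRNA lowered the RNA of most of these enzymes in both fractions. In total RNA 8 of the 10 genes fell, none rose, and the median log2 fold change was −0.82, against −0.04 over all genes. In IP RNA the same count of 8 fell, none rose, and the median was −0.71, against −0.01 over all genes. Phgdh and Psat1 fell more than 2-fold in both fractions. Pck2 and Aldh18a1 passed in neither by the main test, which used TMM scaling and took all 12 libraries as unpaired. For comparison, 53.0% of all genes passed the test in total RNA (29.2% lower, 23.8% higher) and 59.7% in IP RNA (30.4% lower, 29.2% higher). Libraries of the siRNA groups did not overlap, with Pdx1 siRNA lower, for 8 members in each fraction, and for 32.6% of all genes in each fraction. Together the 10 genes held 675 to 690 CPM in NT total, 430 to 473 CPM in Pdx1 siRNA total, 760 to 801 CPM in NT IP and 496 to 517 CPM in Pdx1 siRNA IP. In such bulk RNA, fewer cells that express a gene and less RNA per cell cannot be told apart.

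**Figure D1:**
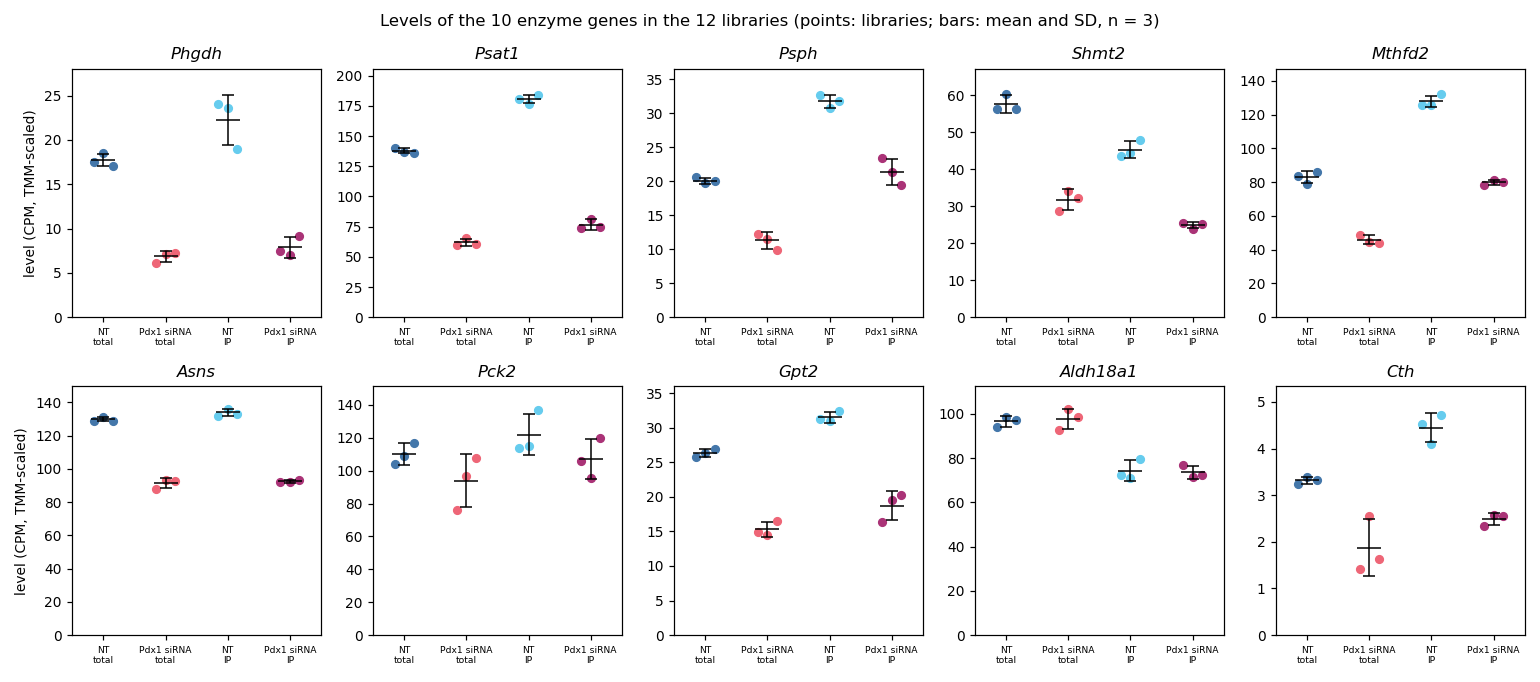
Level of each of the 10 enzyme genes (CPM on TMM-scaled library sizes, linear axes that start at 0) in the 4 groups, with each library as a point and the mean and SD of 3 libraries as bars. For 8 genes both Pdx1 siRNA groups lie below their NT group without overlap; Pck2 and Aldh18a1 overlap in both fractions.

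Among the enzymes of serine synthesis, Phgdh, the first, stood at 17.5, 18.5 and 17.1 CPM in NT total and at 6.08, 7.18 and 7.28 CPM in Pdx1 siRNA total. In IP RNA it stood at 24.0, 23.6 and 19.0 CPM with NT siRNA and at 7.43, 7.0 and 9.17 CPM with Pdx1 siRNA. All Pdx1 siRNA libraries were below all NT libraries, and NT IP replicate 3 was the lowest of its group. The log2 fold change was −1.37 (SE 0.11, adjusted p = 8.8e-08, edgeR, quasi-likelihood, Benjamini-Hochberg) in total RNA and −1.49 (SE 0.11, adjusted p = 2.7e-08) in IP RNA. Without NT IP replicate 3 the IP value was −1.59, and against that library alone, in a fit of the 4 IP libraries that stood apart, it was −1.27. In total RNA 38.8% of the NT level remained and 1.75% of all genes had a lower fold change. How far the counts of its copies enter these values was not tested.

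Psat1, the aminotransferase of the second step, was among the most abundant of the 10. It measured 140, 137 and 136 CPM in NT total and 60.2, 65.3 and 60.8 CPM in Pdx1 siRNA total. In IP RNA it measured 181, 177 and 184 CPM with NT siRNA and 74.0, 81.7 and 74.5 CPM with Pdx1 siRNA. Replicates lay close together and the siRNA groups were far apart in both fractions. The log2 fold changes were −1.15 (SE 0.07, adjusted p = 2.9e-09) in total RNA and −1.24 (SE 0.07, adjusted p = 9.3e-10) in IP RNA, so that 45.1% and 42.5% of the NT level remained. In IP RNA the value was −1.22 without NT IP replicate 3 and −1.27 against that library alone.

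Psph, the phosphatase that releases serine, was at 20.6, 19.7 and 20.0 CPM in NT total and at 12.3, 11.5 and 9.96 CPM in Pdx1 siRNA total. Its IP levels were 32.7, 30.8 and 31.8 CPM with NT siRNA and 23.4, 21.4 and 19.5 CPM with Pdx1 siRNA. The groups did not overlap in either fraction, and every Pdx1 siRNA IP library came near the NT total level. The gene fell by 0.83 (SE 0.09, adjusted p = 1.0e-06) in total RNA and by 0.57 (SE 0.08, adjusted p = 2.9e-05) in IP RNA, on the log2 scale. Its overlapping neighbour Cct6a measured 95.3, 102 and 92.5 CPM in NT total and 80.6, 80.6 and 71.7 CPM in Pdx1 siRNA total. Cct6a thus fell as well, by 0.31 (SE 0.08, adjusted p = 0.00422) in total RNA and by 0.55 (SE 0.08, adjusted p = 3.5e-05) in IP RNA, and its part in the Psph counts was not tested.

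Both mitochondrial enzymes of the folate branch fell. Shmt2 had 56.2, 60.4 and 56.3 CPM in NT total, 28.8, 34.2 and 32.3 CPM in Pdx1 siRNA total, 43.5, 44.5 and 47.8 CPM in NT IP and 25.5, 23.9 and 25.3 CPM in Pdx1 siRNA IP. The siRNA groups were separate in each fraction, and the drop had nearly equal size in both: −0.86 (SE 0.07, adjusted p = 1.7e-07) in total RNA and −0.86 (SE 0.08, adjusted p = 1.6e-07) in IP RNA. Mthfd2 had 83.5, 79.2 and 86.3 CPM in NT total, 48.9, 44.5 and 44.2 CPM in Pdx1 siRNA total, 126, 126 and 132 CPM in NT IP and 78.2, 81.5 and 79.9 CPM in Pdx1 siRNA IP. Again no NT library reached down to a Pdx1 siRNA library of its fraction. Mthfd2 fell by 0.86 (SE 0.07, adjusted p = 6.3e-08) in total RNA and by 0.68 (SE 0.07, adjusted p = 6.1e-07) in IP RNA. Against NT IP replicate 3 alone, the IP values were −0.95 for Shmt2 and −0.73 for Mthfd2.

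Asns, the asparagine synthetase gene, moved less. It measured 129, 131 and 129 CPM in NT total, 88.0, 93.5 and 93.0 CPM in Pdx1 siRNA total, 132, 136 and 133 CPM in NT IP and 92.2, 91.9 and 93.6 CPM in Pdx1 siRNA IP. These were among the tightest replicates of the set, and the groups did not overlap. The log2 fold changes were −0.50 (SE 0.06, adjusted p = 7.9e-06) in total RNA and −0.53 (SE 0.06, adjusted p = 3.8e-06) in IP RNA, which left 70.6% and 69.3% of the NT level.

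Gpt2, the mitochondrial alanine aminotransferase gene, was at 25.8, 26.3 and 26.9 CPM in NT total and 14.9, 14.5 and 16.5 CPM in Pdx1 siRNA total. Its IP libraries stood at 31.2, 31.0 and 32.4 CPM with NT siRNA and 16.3, 19.5 and 20.2 CPM with Pdx1 siRNA. Each Pdx1 siRNA library was lower than each NT library of its fraction. The fall was 0.78 (SE 0.08, adjusted p = 1.1e-06) in total RNA and 0.75 (SE 0.08, adjusted p = 1.5e-06) in IP RNA on the log2 scale.

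Cth, which makes cysteine from cystathionine, was the least abundant member, with 46 to 171 counts per library. Its levels were 3.25, 3.39 and 3.32 CPM in NT total, 1.41, 2.56 and 1.63 CPM in Pdx1 siRNA total, 4.53, 4.10 and 4.71 CPM in NT IP and 2.35, 2.57 and 2.55 CPM in Pdx1 siRNA IP. Replicate 2 was the highest of the Pdx1 siRNA total libraries but still below all NT total libraries. Cth fell by 0.80 (SE 0.16, adjusted p = 7.2e-04) in total RNA and by 0.83 (SE 0.16, adjusted p = 4.1e-04) in IP RNA. Counts without molecular identifiers carry more than counting error, so at these low counts the spread between libraries is the firmer guide.

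The remaining pair did not pass. Pck2, the mitochondrial phosphoenolpyruvate carboxykinase gene, was at 104, 109 and 117 CPM in NT total, 76.4, 96.7 and 108 CPM in Pdx1 siRNA total, 114, 115 and 137 CPM in NT IP and 106, 95.5 and 120 CPM in Pdx1 siRNA IP. Its replicates spread more widely than those of the other abundant members, and the siRNA groups overlapped. The log2 fold change was −0.23 (95% interval −0.48 to 0.02, adjusted p = 0.114) in total RNA and −0.19 (95% interval −0.44 to 0.06, adjusted p = 0.185) in IP RNA. Without Pdx1 siRNA total replicate 3, the highest of its group, the total RNA value was −0.35 and passed the test (adjusted p = 0.0307). With a term for the replicate number it was −0.24 and passed too (adjusted p = 0.0214).

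Aldh18a1, the first enzyme of proline synthesis, measured 94.0, 98.8 and 97.4 CPM in NT total, 92.5, 102 and 98.8 CPM in Pdx1 siRNA total, 72.3, 71.1 and 79.8 CPM in NT IP and 76.9, 71.5 and 72.5 CPM in Pdx1 siRNA IP. The siRNA groups lay over each other in both fractions. Its fold changes were 0.01 (95% interval −0.14 to 0.16, adjusted p = 0.881) and −0.02 (95% interval −0.17 to 0.14, adjusted p = 0.869). The 8 genes that fell all lay below the lower ends of these intervals, at −0.50 or less in both fractions.

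**Figure D2:**
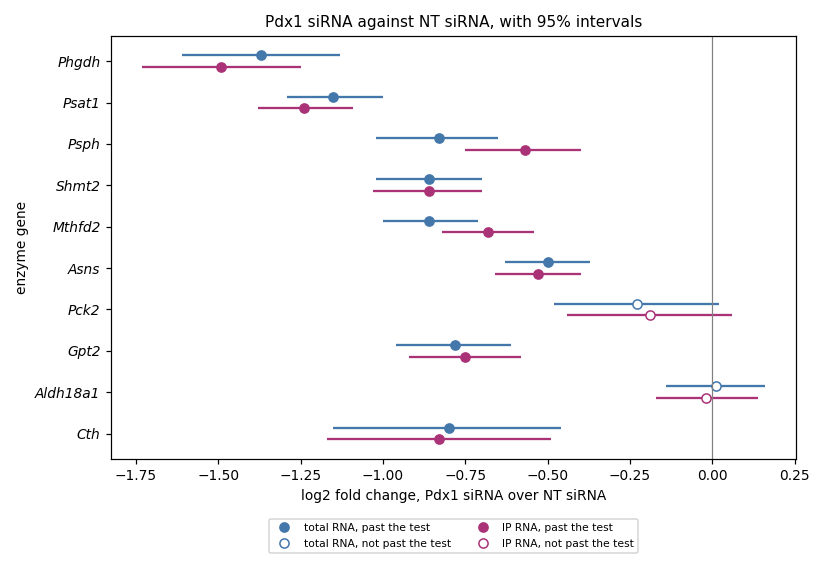
Log2 fold change of Pdx1 siRNA over NT siRNA in total RNA (blue) and IP RNA (purple) for each enzyme gene, with 95% intervals; filled points passed the test at an adjusted p of 0.05. Phgdh and Psat1 lie beyond −1 in both fractions, Asns lies near −0.5, and the intervals of Pck2 and Aldh18a1 reach 0.

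Without NT IP replicate 3 the same 8 genes passed the test in IP RNA, and they did so too with a term for the 4 IP libraries that stood apart and in the fit of those 4 libraries alone. The latter fits rest on a single NT IP library, which is assumed to vary like the others. Between these settings Cth ranged from −0.79 to −0.92, Gpt2 from −0.73 to −0.79 and Asns from −0.52 to −0.53, while Pck2 ranged from −0.10 to −0.36 without passing. With total counts in place of TMM scaling, the median of all genes moved to −0.32 in either fraction, and the calls split into 1485 higher and 6951 lower in total RNA (3010 and 3686 with TMM) and into 1692 and 6762 in IP RNA (3694 and 3848 with TMM). All 10 members then passed as lower in both fractions, Pck2 at −0.52 (adjusted p = 2.5e-04) and −0.50 (adjusted p = 2.7e-04), and Aldh18a1 at −0.26 (adjusted p = 0.00699) and −0.32 (adjusted p = 0.00178). Relative to that median the members ranged from −1.33 for Phgdh to 0.05 for Aldh18a1 in total RNA, and from −1.49 to −0.00 for these genes in IP RNA.

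The size of the siRNA effect was then compared between the fractions. The difference between the siRNA effects (IP minus total) passed the edgeR test for 0 of the 10 genes, for 0 by DESeq2 and for 0 under every alternative tried; 1 gene, Psph, had an unadjusted p under 0.05. Of all genes 0.229% passed (29 genes; 22 or 0.174% higher and 7 or 0.0554% lower), and that split was 22 and 20 with RLE scaling and 24 and 28 with upper-quartile scaling. The Psph difference was 0.26 (95% interval 0.01 to 0.51, adjusted p = 0.278) and the Mthfd2 difference 0.18 (95% interval −0.03 to 0.38, adjusted p = 0.359). For Phgdh it was −0.13 (95% interval −0.47 to 0.21) and for Psat1 −0.09 (95% interval −0.29 to 0.12). The other 6 genes lay between −0.03 and 0.04, with the narrowest interval in Asns (−0.22 to 0.16) and the widest in Cth (−0.52 to 0.47). A p that misses the threshold does not show that the fractions responded alike.

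The enzymes differed more among themselves in how they divided between ribosome-bound and total RNA. With NT siRNA, 6 genes were higher in IP RNA, 2 were lower and 2 did not pass, with a median log2 difference of 0.29. Over all genes, 69.7% passed (33.8% higher, 35.9% lower) and the median was −0.02. Libraries of the fractions did not overlap for 7 members with IP higher and 2 with IP lower, against 37.3% and 40.2% of all genes. Psph was 0.66 higher (SE 0.08, adjusted p = 4.0e-06) and Mthfd2 0.62 higher (adjusted p = 1.1e-06), and for both genes each NT IP library exceeded each NT total library. Smaller positive differences passed for Cth (0.42, adjusted p = 0.0192), Psat1 (0.39, adjusted p = 1.0e-04), Phgdh (0.33, adjusted p = 0.0106) and Gpt2 (0.26, adjusted p = 0.00808). Shmt2 and Aldh18a1 went the other way, at −0.35 (adjusted p = 6.3e-04) and −0.38 (adjusted p = 2.1e-04). Thus the mitochondrial partners Shmt2 and Mthfd2 lay on opposite sides of total RNA. Asns (0.04, 95% interval −0.09 to 0.18) and Pck2 (0.15, 95% interval −0.11 to 0.40) did not pass.

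With Pdx1 siRNA, 4 genes were higher in IP RNA, 2 lower and 4 did not pass, and the median was 0.25. Over all genes, 75.1% passed (36.3% higher, 38.7% lower). The fractions were separate for 3 members with IP higher and 2 with IP lower, against 35.7% and 37.9% of all genes. Psph was at 0.92 (adjusted p = 1.5e-07), Mthfd2 at 0.80 (adjusted p = 5.9e-08), Psat1 at 0.31 (adjusted p = 8.7e-04) and Gpt2 at 0.29 (adjusted p = 0.00477). The lower pair was again Shmt2, at −0.35 (adjusted p = 6.3e-04), and Aldh18a1, at −0.41 (adjusted p = 8.7e-05). Phgdh (0.20, adjusted p = 0.146) and Cth (0.40, adjusted p = 0.054) did not pass, nor did Asns (0.02, adjusted p = 0.821) or Pck2 (0.19, adjusted p = 0.16).

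Some of these calls changed when a single library was left out. With NT siRNA, Phgdh (0.27, adjusted p = 0.0556) and Cth (0.41, adjusted p = 0.0503) no longer passed without NT IP replicate 1, while without NT IP replicate 3 all 8 calls held, with Phgdh at 0.43 and Cth at 0.38 (adjusted p = 0.0479). With Pdx1 siRNA, Cth passed at 0.72 (adjusted p = 4.7e-04) without Pdx1 siRNA total replicate 2, and Pck2 at 0.31 (adjusted p = 0.0348) without Pdx1 siRNA total replicate 3. All 3 Pdx1 siRNA IP libraries are among those that stood apart, so this property and the fraction cannot be told apart within the Pdx1 siRNA groups. With a term for it, taken from the NT IP libraries, Phgdh passed at 0.53 (adjusted p = 0.0166), whereas Psat1 (0.27, adjusted p = 0.101) and Gpt2 (0.24, adjusted p = 0.19) did not. With total-count scaling the median of all genes was −0.31 with NT siRNA and −0.34 with Pdx1 siRNA, and Asns, Gpt2 and Pck2 turned negative in both, as did Psat1 and Phgdh with Pdx1 siRNA. The calls then split into 2006 higher and 6588 lower with NT siRNA (4273 and 4537 with TMM) and into 2567 and 6847 with Pdx1 siRNA (4593 and 4897 with TMM). Relative to those medians Psph stood at 0.68 and 0.95, Mthfd2 at 0.64 and 0.82, Shmt2 at −0.33 and −0.33, and Aldh18a1 at −0.36 and −0.39.

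**Figure D3:**
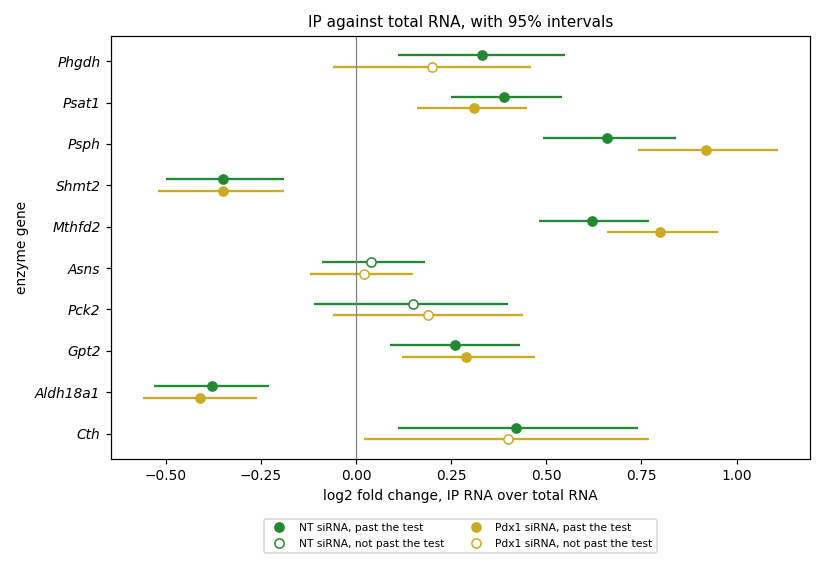
Log2 difference of IP RNA over total RNA with NT siRNA (green) and Pdx1 siRNA (yellow) for each enzyme gene, with 95% intervals; filled points passed the test at an adjusted p of 0.05. Psph and Mthfd2 lie furthest to the right, and Shmt2 and Aldh18a1 lie below 0 with either siRNA.

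Levels of different genes were compared as CPM per kilobase of the representative transcript (mean ± SD, n = 3). In NT total the order was Asns (64.8 ± 0.551), Psat1 (52.6 ± 0.835), Mthfd2 (39.8 ± 1.72), Pck2 (32.4 ± 1.97), Aldh18a1 (27.4 ± 0.693), Shmt2 (25.2 ± 1.05), Psph (11.6 ± 0.266), Phgdh (9.35 ± 0.366), Gpt2 (7.23 ± 0.155) and Cth (1.83 ± 0.0399), and no neighbours in it overlapped. The first enzyme of serine synthesis was thus below the second in this measure, although the Phgdh counts are uncertain. In Pdx1 siRNA total Asns still led (45.7 ± 1.54), followed by Aldh18a1 (27.7 ± 1.34), Pck2 (27.6 ± 4.74), Psat1 (23.7 ± 1.06) and Mthfd2 (22.0 ± 1.25), whose neighbours overlapped. Below them came Shmt2 (13.9 ± 1.19), Psph (6.50 ± 0.697), Gpt2 (4.20 ± 0.290), Phgdh (3.62 ± 0.354) and Cth (1.03 ± 0.337), without overlap.

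In NT IP, Psat1 (69.1 ± 1.32) and Asns (66.8 ± 1.06) overlapped at the top, Mthfd2 (61.3 ± 1.53) and Pck2 (35.9 ± 3.72) followed, and Aldh18a1 (21.1 ± 1.34) and Shmt2 (19.8 ± 0.980) overlapped. Psph stood at 18.3 ± 0.546, Phgdh at 11.7 ± 1.49, Gpt2 at 8.67 ± 0.204 and Cth at 2.45 ± 0.171. In Pdx1 siRNA IP, Asns (46.3 ± 0.459) led Mthfd2 (38.3 ± 0.779), and Pck2 (31.5 ± 3.58) overlapped with Psat1 (29.3 ± 1.66). Aldh18a1 (20.9 ± 0.824), Psph (12.4 ± 1.12) and Shmt2 (10.9 ± 0.397) came next, and Gpt2 (5.14 ± 0.572) overlapped with Phgdh (4.16 ± 0.608) above Cth (1.37 ± 0.0686). Psat1 thus stood at or next to the top of the order with NT siRNA. With Pdx1 siRNA it stood below Asns and overlapped with Pck2 in both fractions.

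**Figure D4:**
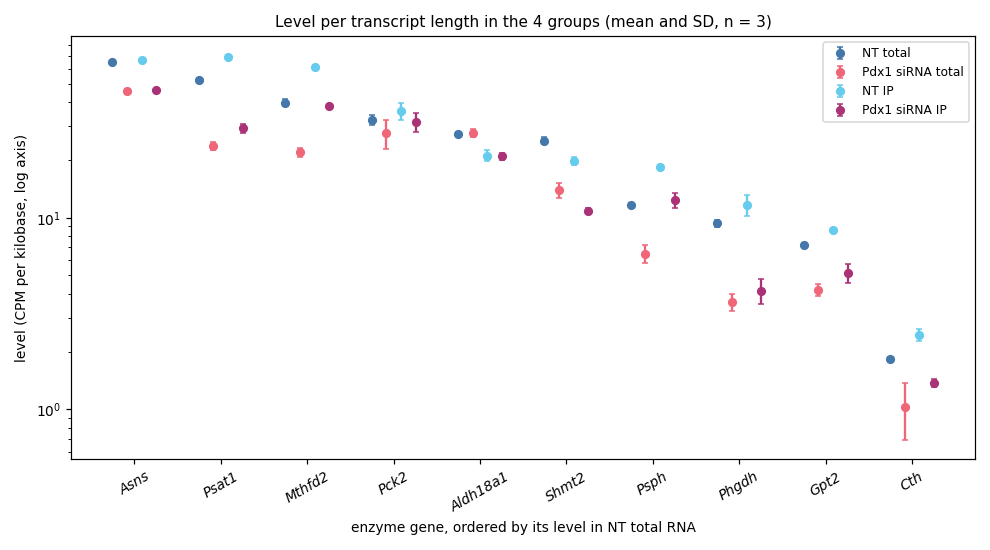
Level per transcript length (CPM per kilobase, log axis) of the 10 enzyme genes in the 4 groups, as mean and SD of 3 libraries, with genes ordered by NT total. Asns is at the top of NT total at 64.8 and Cth at the bottom at 1.83.

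Of the genes for related enzymes, mostly forms from another compartment or of a neighbouring step, 6 were measured. Mthfd2l, Pck1 and Pycr1 were not analysed here. The difference between the siRNA effects (IP minus total) passed the main test for 0 of the 6. Among the alternatives, it passed for Gpt by DESeq2 (0.48, adjusted p = 0.0341). Without NT IP replicate 3 it passed for Gpt (0.56, adjusted p = 0.0168) and Got2 (−0.44, adjusted p = 0.0481). Shmt1, the cytosolic form of Shmt2, was at 11.2 ± 1.14 CPM in NT total and 4.60 ± 0.583 CPM in Pdx1 siRNA total (mean ± SD, n = 3). It fell like its mitochondrial counterpart, by 1.27 (SE 0.11, adjusted p = 1.4e-07) in total RNA and by 1.71 (SE 0.12, adjusted p = 1.2e-08) in IP RNA. Gpt, the cytosolic form of Gpt2, did not pass in total RNA (0.06, adjusted p = 0.594) and rose by 0.56 (SE 0.08, adjusted p = 4.5e-05) in IP RNA, the opposite direction to Gpt2. Cbs, which makes the cystathionine that CTH cleaves, rose by 0.71 (SE 0.08, adjusted p = 3.1e-06) in total RNA and by 0.68 (SE 0.08, adjusted p = 4.2e-06) in IP RNA, while Cth fell in both. Mthfd1, the cytosolic folate enzyme, did not pass in total RNA (−0.14, adjusted p = 0.136) and fell by 0.44 (adjusted p = 2.6e-04) in IP RNA. Mthfd1l, its mitochondrial relative, passed in neither fraction (−0.00 and −0.15). Got2, the mitochondrial aspartate aminotransferase, did not pass in total RNA (−0.18, adjusted p = 0.125) and fell by 0.51 (adjusted p = 2.8e-04) in IP RNA, but 72.5% of its transcript matches other transcripts and the call was lost against NT IP replicate 3 alone (−0.29, adjusted p = 0.0886).

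The other genes of these pathways, in 6 lists of which some share genes, did not all move in a single direction. In both fractions falls outnumbered rises in the purine and thymidylate, methionine cycle and ATF4 lists. For comparison, 29.2% of all genes fell and 23.8% rose in total RNA, and 30.4% fell and 29.2% rose in IP RNA. Each list gene named below for 1 fraction alone also passed the main test in the other, with the same sign. The exception was Impdh2, which did not pass in total RNA (−0.334). Of 10 measured genes of serine and glycine metabolism, 2 rose and 2 fell in total RNA (median 0.08), and 4 rose and 3 fell in IP RNA (median 0.11). Gcat, which turns the threonine product aminoketobutyrate into glycine, fell by 1.04 (adjusted p = 1.9e-08) in total RNA and by 1.11 (adjusted p = 6.0e-09) in IP RNA. Sptlc1, a subunit of the enzyme that uses serine to start sphingolipid synthesis, rose by 0.44 in total RNA (adjusted p = 4.7e-04), and Gcsh of the glycine cleavage system rose by 0.46 in IP RNA (adjusted p = 4.4e-04); their calls were lost with total-count scaling, at 0.16 each.

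Of 19 folate cycle genes, 5 rose and 5 fell in total RNA (median −0.00), and 6 rose and 7 fell in IP RNA (median 0.06). Aldh1l1, the cytosolic enzyme that oxidises formyl-folate, rose from 0.990, 0.886 and 1.06 CPM to 4.60, 4.80 and 5.24 CPM in total RNA, a log2 fold change of 2.31 (SE 0.12, adjusted p = 6.7e-10). In IP RNA its log2 fold change was 2.70 (SE 0.11, adjusted p = 3.9e-11). Tyms, the thymidylate synthase gene, fell from 48.5, 47.7 and 46.1 CPM to 19.6, 20.0 and 16.3 CPM in total RNA, by 1.35 on the log2 scale (adjusted p = 2.6e-09), and by 1.83 (adjusted p = 9.1e-11) in IP RNA.

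In purine and thymidylate synthesis, 10 of 17 genes fell and 1 rose in total RNA (median −0.34), and 13 fell and 1 rose in IP RNA (median −0.60). Beside Tyms and Shmt1, which are in this list too, Gart, an enzyme of purine synthesis, fell by 0.71 (adjusted p = 2.0e-07) in total RNA. The lowest IP value, −3.11 (adjusted p = 4.5e-04) for Impdh2, was picked out after it was seen and belongs to a gene with 83.2% of its transcript matched elsewhere. Impdh2 stood at 20.4, 19.1 and 1.57 CPM in NT IP and at 1.43, 1.72 and 1.57 CPM in Pdx1 siRNA IP, so that NT IP replicate 3 was as low as the Pdx1 siRNA libraries. Against that library alone its value was 0.01 (adjusted p = 0.985), and then 10 genes of the list fell and none rose (median −0.46); without that library it was −3.64, and 14 fell and 1 rose.

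Of 27 genes of the methionine cycle, transsulfuration and glutathione synthesis, 7 rose and 13 fell in total RNA (median −0.19), and 6 rose and 11 fell in IP RNA (median −0.09). Beside Cbs, the named genes were Chac1, a glutathione-degrading enzyme (−0.80 in total RNA, adjusted p = 8.6e-07), Apip of methionine salvage (−0.70 in total RNA, adjusted p = 3.9e-06, and −0.80 in IP RNA, adjusted p = 6.0e-07), the methionine synthase gene Mtr (−1.06 in IP RNA, adjusted p = 4.0e-06) and Ahcy (−0.89 in IP RNA, adjusted p = 3.3e-06), of which 81.9% has copies. Of 23 genes of glutamate, proline, aspartate and alanine metabolism, 4 rose and 3 fell in total RNA (median −0.05), and 7 rose and 8 fell in IP RNA (median −0.06), or 4 and 2 against NT IP replicate 3 alone and 6 and 4 with a term for the libraries that stood apart. Aldh4a1, which breaks down a proline intermediate, rose by 0.66 (adjusted p = 1.3e-05) in total RNA and by 0.67 (adjusted p = 1.2e-05) in IP RNA. Glud1 rose by 0.48 (adjusted p = 1.9e-05) and Abat by 0.45 (adjusted p = 7.8e-05) in total RNA, the latter not with total-count scaling (0.17, adjusted p = 0.103), and Oat, which links ornithine to proline synthesis, fell by 0.63 (adjusted p = 2.7e-06) in IP RNA.

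Of 18 genes of the ATF4 axis, 11 fell and 2 rose in total RNA (median −0.45), and 8 fell and 3 rose in IP RNA (median −0.20). Atf4 itself fell by 0.74 (SE 0.10, adjusted p = 2.0e-05) in total RNA and by 0.51 (SE 0.10, adjusted p = 4.4e-04) in IP RNA. Atf5, a related factor, fell by 1.03 (adjusted p = 1.7e-08) and 0.52 (adjusted p = 1.9e-05), and Trib3, a pseudokinase gene known as an ATF4 target, by 1.23 (adjusted p = 9.5e-07) and 0.88 (adjusted p = 1.7e-05). Sesn2, another known stress target, went the other way and passed the test in both fractions. It rose by 0.76 in total RNA and by 0.80 (adjusted p = 1.4e-06) in IP RNA. Whether the change of Atf4 has a part in those of the enzymes was not tested.

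**Figure D5:**
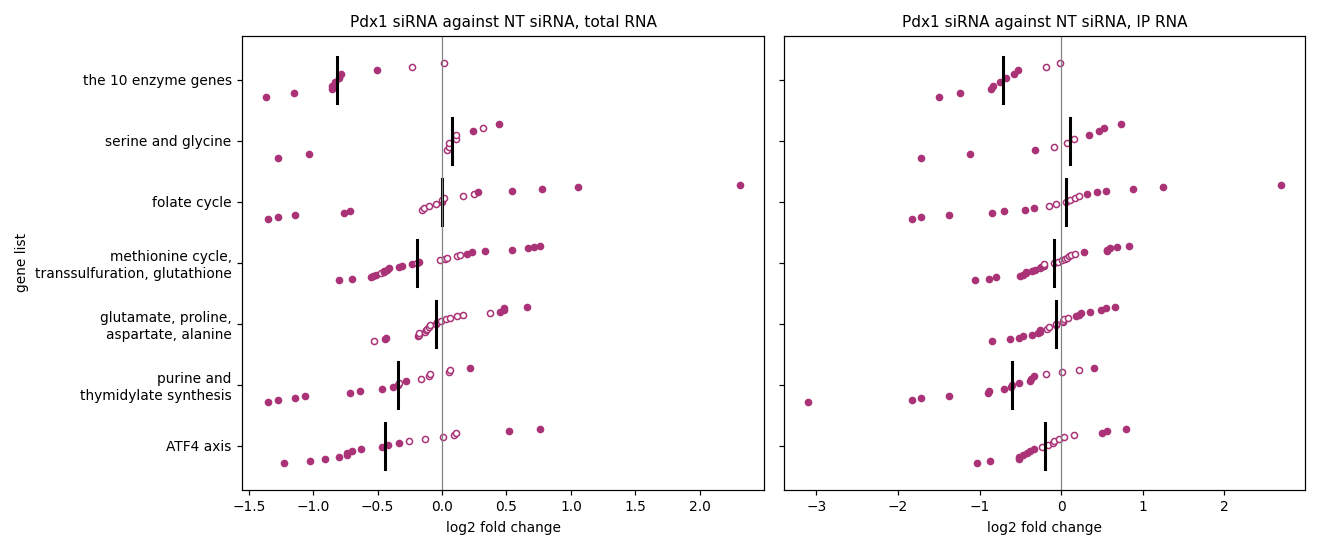
Log2 fold change of Pdx1 siRNA over NT siRNA for every measured gene of the 10 enzymes and of the 6 pathway lists, in total RNA (left) and IP RNA (right); filled points passed the test at an adjusted p of 0.05 and vertical bars are medians. The medians of the 10 enzymes lie at −0.82 and −0.71, and those of the serine and glycine list at 0.08 and 0.11.

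The 9 members without a copy gave a mean profile over the 12 libraries. The genes most like it were Cdca7l (Pearson r = 0.987), Apcdd1 (0.986), Nptx2 (0.984), Trpm5 (0.983) and Mgat4a (0.982). They were sought among 9778 non-members at a mean of 5 CPM or more that were checked for near-identical copies and had none. These r values describe 12 libraries in 4 groups, which share siRNA and fraction. The 5 genes were chosen on the same libraries, so their fold changes after Pdx1 siRNA are only a description: in total and IP RNA they were −1.36 and −1.41 for Cdca7l, −0.74 and −0.92 for Apcdd1, −1.43 and −1.45 for Nptx2, −1.28 and −1.47 for Trpm5, and −0.73 and −0.78 for Mgat4a.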

How the data were processed

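The authors deposited a table of raw counts per library, whole numbers of reads per RefSeq transcript with no normalization. The submitters' processing notes name TopHat2, featureCounts and mm10; their versions, the strand setting and the handling of multi-mapping reads were not given in the sources used here. Of 17133 transcripts, 16838 were matched to 12643 symbols through a RefSeq table of GRCm38.p6, and unmatched ones (0.577% to 0.834% of counts) were left out. The test was that of edgeR 4.0.16 under R 4.3.3 (quasi-likelihood test, TMM, default expression filter, which removed 0 genes, 1 mean per group over all 12 libraries), with Benjamini-Hochberg adjustment over all genes and a threshold of 0.05. The scripts were tested on simulated data. Near-identical copies were sought with minimap2 2.31 in GENCODE M21 transcripts (at least 100 bases and 95% identity; 50% of a transcript marked a gene as copied). Alternatives were other scalings, DESeq2 1.42.0, other filters, summed transcripts, a replicate block, a term for the libraries that stood apart, and leaving out each library; those of the list counts in IP RNA were chosen after seeing the data.

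The members and lists were chosen with earlier results of these data known. Named genes were the members, Pdx1 and Atf4, the counterparts, up to 3 genes of each list and comparison with the smallest adjusted p, and the 5 genes most alike in profile. Of these, the list genes of the IP against total comparisons are not described, and 1 list gene is not reported here.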

Additional observations from a re-analysis of the deposited data

How the results depend on the processing

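Over the 5 comparisons, 796 of 820 recomputed member values kept their side of the threshold. Of the rest, 7 no longer passed and 11 came to pass, without a change of sign. The last 6 changed sign, and passed in the main or in the changed setting but not in both. Among the 796, 29 changed sign but passed in neither setting. The 6 values that changed sign with a pass all came with total-count scaling. Aldh18a1 came to pass as lower in total RNA (−0.26, adjusted p = 0.00699). Asns did so in IP against total with NT siRNA (−0.25, adjusted p = 0.00495) and with Pdx1 siRNA (−0.30, adjusted p = 9.3e-04). Calls were lost in IP against total for Gpt2 with NT siRNA (−0.03, adjusted p = 0.773) and with Pdx1 siRNA (−0.03, adjusted p = 0.796). Psat1 with Pdx1 siRNA lost its call as well (−0.01, adjusted p = 0.9). That scaling also left 5 in place of 8 members past the test in IP against total with NT siRNA. The fit of the 4 IP libraries that stood apart called 4914 genes in IP RNA (7542 with all libraries), with fewer samples. The count of genes whose siRNA effect differed between fractions, 29, moved most: 52 with upper-quartile scaling, 11 with total-count scaling, 5 with a term for the libraries that stood apart and 327 with DESeq2; the cause was not tested. Leaving out 1 library gave 4 to 571, the highest without NT IP replicate 3 and next 383 without Pdx1 siRNA total replicate 1. Whether the replicate numbers pair the samples was not settled. Same-number pairs correlated from −0.14 to 0.63, with 9 of 18 above 0.1, and in 10 of 18 comparisons the own number correlated best. The main test treated the libraries as unpaired. With the replicate block 373 genes differed between fractions, and 9 members passed in total RNA (Pck2 at −0.24, adjusted p = 0.0214), 8 in IP RNA and 7 in IP against total with Pdx1 siRNA (Pck2 at 0.20, adjusted p = 0.0414). Depth limits Cth most, with 46 to 171 counts per library.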
